A study of Homo sapiens with 4 samples.

Results

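MYC and 9 genes for nucleolar ribosome biogenesis factors (POLR1B, FBL, NOP56, NOP58, DKC1, BOP1, WDR12, NCL and NPM1) were followed across the 4 libraries of a PBRM1 re-expression experiment. The set and the gene lists used below were chosen with earlier results of these data known. The members were taken by gene symbol, and all 10 were found among the 58735 genes of the count table. All 10 were among the 16262 genes compared, those with a level of at least 1 CPM (counts scaled to a common library size) in at least 1 library. RNA was sequenced from HEK293T cells, a line derived from human embryonic kidney that carries viral oncoproteins, whose PBRM1 gene had been cut with CRISPR. PBRM1 is a subunit of PBAF, a SWI/SNF chromatin remodeller, and has several bromodomains and paired BAH (bromo-adjacent homology) domains. The disrupted cells carried a plasmid for GFP-tagged PBRM1 for 48 h, so that the groups were P1048R, T1202K and C1233W, the BAH domain mutants, and WT, the unaltered protein. All 4 groups shared the PBRM1 disruption and the transfection, and cells that received no plasmid are not analysed here. The sources used here do not say whether the disrupted line was 1 clone or which share of cells took up the plasmid. Each construct had 1 library, so no difference below has a replicate check, no test was made, and every interval covers counting error only. The comparisons over WT all use the same WT library, and likewise all comparisons that include C1233W use its 1 library.

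MYC is a basic helix-loop-helix transcription factor that binds DNA as a dimer with MAX and is known to raise the transcription of genes for ribosome production. Ribosome assembly starts in the nucleolus, where RNA polymerase I makes the precursor of the large ribosomal RNAs. Box C/D particles methylate that precursor and H/ACA particles convert uridines in it to pseudouridine, while large assembly complexes cut it and fold it with ribosomal proteins. POLR1B is a core subunit of RNA polymerase I, FBL, NOP56 and NOP58 are box C/D proteins, and DKC1 is the pseudouridine synthase of the H/ACA particle. BOP1 and WDR12 belong, with PES1, to the PeBoW complex of large subunit processing, and NCL (nucleolin) and NPM1 (nucleophosmin) are abundant nucleolar RNA-binding and chaperone proteins.

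Promoter sequence is shown for NCL and NPM1, with a large difference between mutants and WT. It is also shown for FBL and NOP56, partners in 1 particle whose RNA differed from each other. They were chosen with these values known, and MYC and BOP1, which also had large ratios over WT in a mutant, are not shown. Each sequence holds 100 bases before and 20 bases from the RefSeq start, read 5′ to 3′ on the gene's strand of GRCh38.p14. Capitals mark CACGTG, the E-box that MYC and MAX dimers are known to bind, which reads the same on both strands, and the related CACGCG on either strand (CGCGTG on the other).
NCL, chr2:231464465-231464584, minus strand: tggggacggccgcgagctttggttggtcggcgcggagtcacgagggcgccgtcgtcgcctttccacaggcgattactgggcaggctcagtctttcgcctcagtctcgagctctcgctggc
NPM1, chr5:171387016-171387135, plus strand: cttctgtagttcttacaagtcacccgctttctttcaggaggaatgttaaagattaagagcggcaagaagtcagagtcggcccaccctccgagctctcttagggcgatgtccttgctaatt
FBL, chr19:39846360-39846479, minus strand: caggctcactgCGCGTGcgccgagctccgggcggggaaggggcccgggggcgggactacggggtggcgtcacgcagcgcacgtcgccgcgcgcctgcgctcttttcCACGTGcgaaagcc
NOP56, chr20:2652532-2652651, plus strand: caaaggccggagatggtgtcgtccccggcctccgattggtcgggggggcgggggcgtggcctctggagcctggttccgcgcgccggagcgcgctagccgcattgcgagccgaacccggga

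In windows of 300 bases (250 before to 50 after the start), RefSeq promoters were matched for 7 of the members, and the search left out chromosome 8, where MYC and BOP1 lie. CACGTG was found in 1 of these 7, FBL, with its first base at position 7 after the start, and in 2548 of 35116 promoters outside chromosome 8 (7.26%). CACGCG on either strand was found in the same promoter, at position -89, and in 4014 of the 35116 (11.4%). The matches in FBL did not overlap, and they are matches of letters and not measured binding sites.

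Total counts were 10246250 to 11205322 reads per library, and a floor of 3 reads was 0.251 to 0.321 CPM, far below every member. PBRM1 RNA, from the plasmid and the disrupted locus together, was 8805 CPM in P1048R, 15262 CPM in T1202K, 60509 CPM in C1233W and 22768 CPM in WT. It took up 0.938%, 1.57% and 6.04% of reads in the P1048R, T1202K and C1233W libraries, and 2.08% in WT. Mitochondrially encoded genes held 5.63%, 5.53% and 6.23% of reads in P1048R, T1202K and C1233W, against 8.48% in WT. All 6 marker genes of HEK293T cells reached 1 CPM in some library. Markers of endothelium and keratinocytes did not (0 of 4 and 0 of 3), and 1 of 5 blood markers did, with CD3E and HBB at 0 reads in every library. Of the hepatocyte markers, 1 of 3 reached it, with summed levels of at most 2.13 CPM. Of the fibroblast markers, 4 of 5 reached it, with summed levels of 25.6, 34.6 and 50.8 CPM in P1048R, T1202K and C1233W, against 47.8 CPM in WT.

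**Figure D1:**
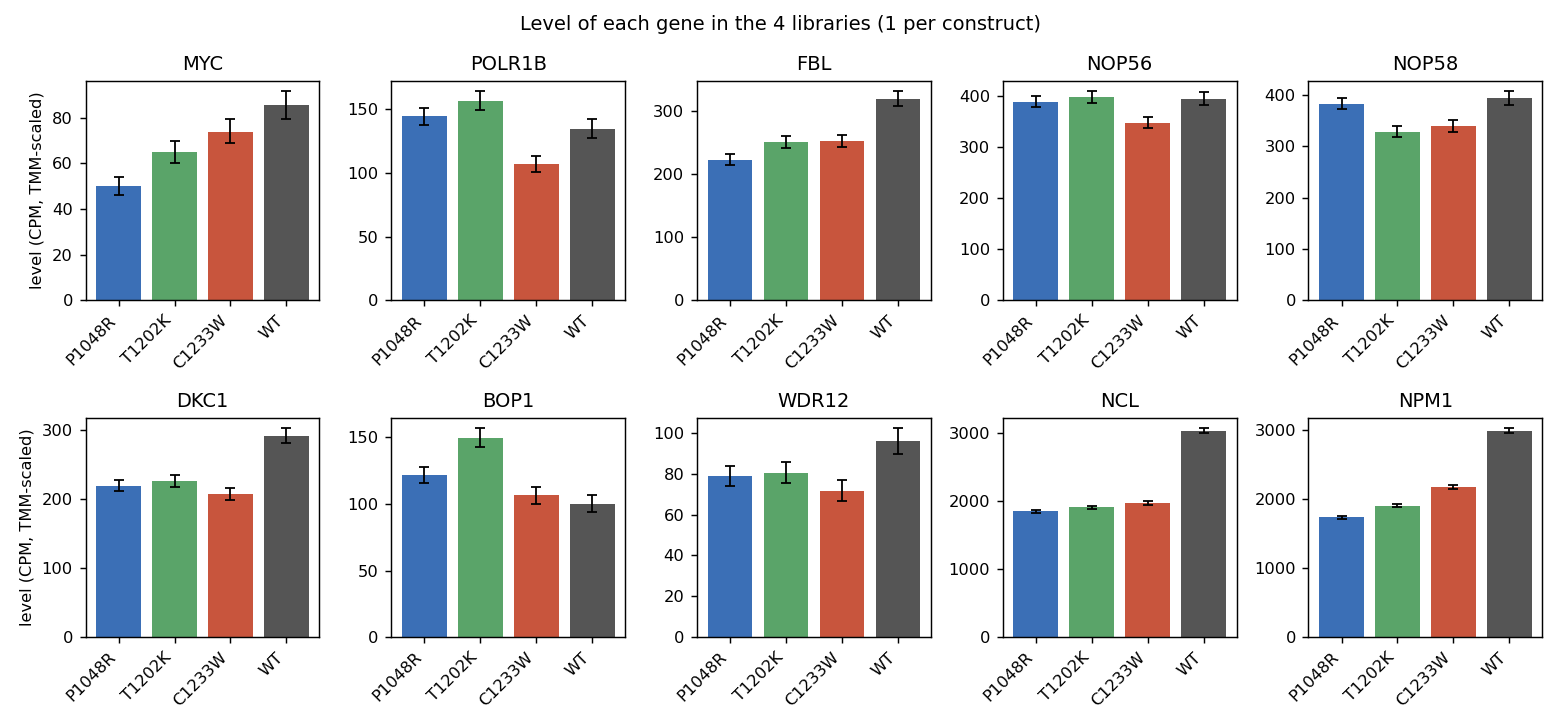
Level of each of the 10 genes (CPM, scaled by TMM library size) in the P1048R, T1202K, C1233W and WT libraries, 1 bar per library, each panel with its own axis from 0. Error bars are exact 95% Poisson intervals of the counts. WT is the highest bar for 7 genes and T1202K for POLR1B, NOP56 and BOP1.

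Per length of exon, NPM1 and NCL were the most abundant members, with mean levels of 1989.6 and 1090.5 TPM (counts per exon length, scaled to a common sum in each library) over the 4 libraries. FBL followed at 418 TPM, NOP58 at 385 TPM, NOP56 at 251 TPM, DKC1 at 196 TPM and BOP1 at 115 TPM. MYC and POLR1B lay next to each other at 79.3 and 76.0 TPM, and WDR12 was lowest at 31.5 TPM. Within P1048R, MYC was below POLR1B (64.9 and 89.0 TPM), whereas within WT it was above it (82.2 and 61.5 TPM), so the order of these neighbours was not fixed. WDR12 and NCL have long annotated exons (9098 and 6929 bases in union), so a level per length is understated for a gene whose annotated exons are partly unused. Members stood between the 67.7th and the 99.8th percentile of the genes compared on this scale. In TPM, WT had the highest level only for NCL and NPM1, so the order of libraries for the other members depends on the scale. Ratios between libraries below use CPM.

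In CPM, MYC RNA was lowest with P1048R and highest with WT. In TPM it was highest with C1233W (89.2 TPM, against 82.2 TPM in WT). The P1048R library had 49.9 CPM (95% interval 46.0 to 54.1), T1202K had 64.9 CPM (60.3 to 69.8), C1233W had 73.9 CPM (68.8 to 79.3) and WT had 85.4 CPM (79.6 to 91.5). The counting intervals of C1233W and T1202K overlapped, while P1048R lay apart from the other 3 libraries. As a log2 ratio over WT, MYC was at -0.77 (-0.93 to -0.62) with P1048R, at -0.40 (-0.54 to -0.25) with T1202K and at -0.21 (-0.35 to -0.06) with C1233W. Only the P1048R ratio was past 1.5-fold, a size that 19.7% of all genes passed in that comparison, and 8.01% of all genes had a lower ratio. In bulk RNA, fewer cells with a transcript and less RNA per cell cannot be told apart. The summed HEK293T markers followed the same order as MYC, with 929, 1123 and 1166 CPM in P1048R, T1202K and C1233W, against 1385 CPM in WT, and their part in the MYC result was not tested.

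Several genes of the MYC network differed from WT in the other direction. PVT1, a long non-coding RNA gene on the same strand of chromosome 8 that starts 53098 bases past the end of MYC, had 29.0 CPM in P1048R, 23.8 CPM in T1202K and 18.6 CPM in C1233W, against 6.74 CPM in WT. It was highest where MYC was lowest, and its ratio over WT was 2.09 (1.71 to 2.52), 1.81 (1.42 to 2.24) and 1.45 (1.04 to 1.90) on the log2 scale in P1048R, T1202K and C1233W. The count in WT was 63 reads, and no exonic bases are shared between PVT1 and MYC. ZBTB17 (MIZ1), a zinc finger factor through which MYC represses genes, had 45.5, 47.4 and 36.4 CPM in P1048R, T1202K and C1233W, against 21.9 CPM in WT. Its log2 ratios over WT were 1.05, 1.11 and 0.73. Past 2-fold, P1048R, T1202K and C1233W differed from WT in 7.50%, 5.15% and 5.40% of all genes. With a trend on GC content and transcript length removed, the ZBTB17 ratios were 0.90, 0.81 and 0.55, under 2-fold in each mutant and under 1.5-fold in C1233W. MAX, the dimer partner, had 67.9, 75.4 and 65.5 CPM in P1048R, T1202K and C1233W, against 95.8 CPM in WT, with log2 ratios of -0.50, -0.34 and -0.55 that were under 1.5-fold. MXD1, a repressor that competes for MAX, had 32.1, 27.8 and 28.6 CPM in P1048R, T1202K and C1233W, against 20.5 CPM in WT, and was past 1.5-fold in P1048R alone (log2 ratio 0.64). MLX, partner of the glucose-sensing branch of the network, had 87.4, 88.6 and 61.0 CPM in P1048R, T1202K and C1233W, against 53.5 CPM in WT. MAX, MXD1 and MLX were named after their values were seen.

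**Figure D2:**
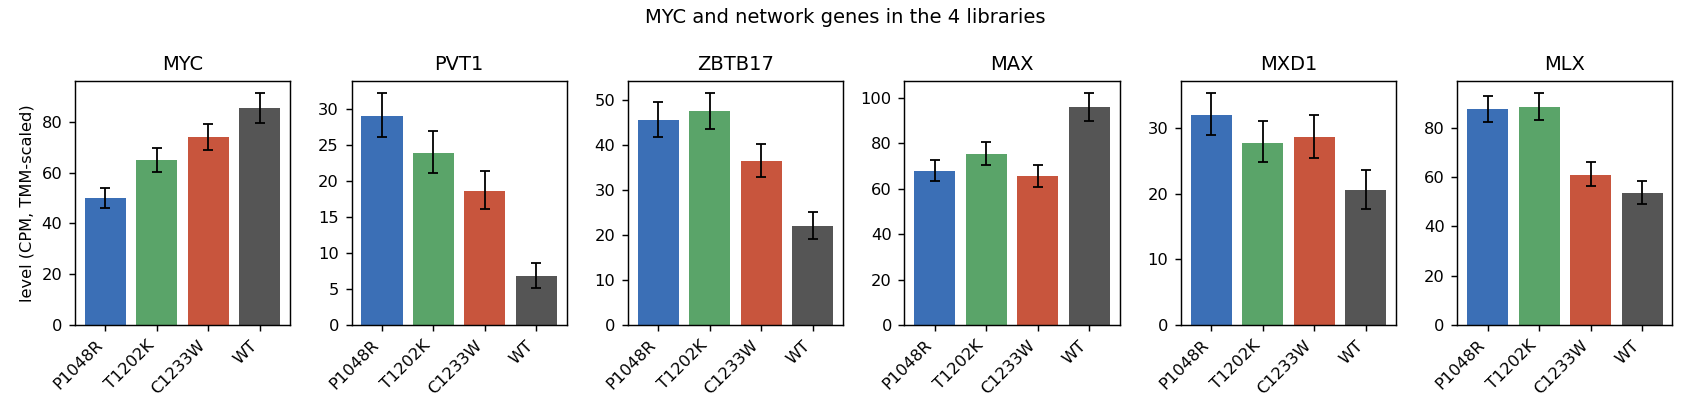
Level (CPM, TMM-scaled) of MYC, PVT1, ZBTB17, MAX, MXD1 and MLX in the P1048R, T1202K, C1233W and WT libraries, 1 bar per library, with exact 95% Poisson intervals. PVT1 and ZBTB17 are above WT in all 3 mutant libraries (18.6 to 29.0 and 36.4 to 47.4 CPM, against 6.74 and 21.9 CPM in WT), and MYC and MAX are below it.

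Over the whole MYC network list, 15 of 16 genes were compared, and MYCN was left out at 0 to 0.58 CPM. In P1048R 5 genes were past 1.5-fold higher than WT and 1, MYC itself, lower, in T1202K 3 were higher and 0 lower, and in C1233W 2 were higher and 1 lower. The lower gene in C1233W was MYCBP, a MYC-binding protein, with 24.9 CPM against 38.4 CPM in WT (log2 ratio -0.63), and it was under 1.5-fold (-0.50) when libraries were scaled by their total counts and also with the GC and length trend removed. Of all genes, 10.7%, 7.96% and 8.77% were past 1.5-fold higher in P1048R, T1202K and C1233W, and 8.99%, 5.29% and 4.94% lower. The median ratio of the list was 0.12, 0.14 and 0.14 in P1048R, T1202K and C1233W, beside -0.04, -0.01 and -0.01 for all genes.

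POLR1B did not follow MYC. It had 144 CPM in P1048R, 156 CPM in T1202K and 107 CPM in C1233W, against 135 CPM in WT. T1202K was highest and C1233W lowest, and the interval of the P1048R ratio over WT included 0 (0.10, -0.01 to 0.20). The log2 ratios over WT were 0.21 (0.11 to 0.32) in T1202K and -0.33 (-0.45 to -0.22) in C1233W, none past 1.5-fold. For each MYC read there were 2.89 and 2.41 POLR1B reads in P1048R and T1202K and 1.45 in C1233W, against 1.58 in WT, a quantity that no scaling of libraries changes. Among the 15 genes for RNA polymerase I and its factors, the median ratio over WT was 0.10, 0.09 and -0.33 in P1048R, T1202K and C1233W. The 1 gene past 1.5-fold over WT was TAF1D, a subunit of the promoter selectivity factor, with 360.0, 255 and 236 CPM in P1048R, T1202K and C1233W, against 194 CPM in WT, and it passed in P1048R alone (log2 ratio 0.89). In either direction, 19.7%, 13.3% and 13.7% of all genes were past that size in P1048R, T1202K and C1233W.

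The 3 core box C/D proteins, which sit in 1 particle, had unlike profiles. FBL, the methyltransferase, had 222 CPM in P1048R, 250.2 CPM in T1202K and 252 CPM in C1233W, against 319 CPM in WT. NOP56, a scaffold of the particle, had 389.9, 398 and 349 CPM in P1048R, T1202K and C1233W, against 395 CPM in WT. NOP58, the scaffold on its other side, had 383, 328 and 339 CPM in P1048R, T1202K and C1233W, against 393 CPM in WT. In CPM, FBL was therefore lower than WT in each mutant (log2 ratios -0.52, -0.35 and -0.34 in P1048R, T1202K and C1233W). NOP56 was at the WT level in P1048R and T1202K (-0.02 and 0.01, both intervals including 0) and -0.18 in C1233W. NOP58 was at the WT level in P1048R (-0.04, -0.10 to 0.02) and lower in T1202K and C1233W (-0.26 and -0.22). None of these ratios was past 1.5-fold. In TPM, FBL had 399.7, 430.4 and 420.3 in P1048R, T1202K and C1233W, against 423.5 in WT. On that scale NOP56 and NOP58 were above WT in each mutant. Counted within each library, there were 1.75, 1.59 and 1.38 NOP56 reads per FBL read in P1048R, T1202K and C1233W, against 1.24 in WT, and the 4 counting intervals did not overlap. NOP58 reads per FBL read were 1.72, 1.31 and 1.34 in P1048R, T1202K and C1233W, against 1.24 in WT (1.18 to 1.30), and NOP56 per NOP58 was 1.02, 1.22 and 1.03, against 1.00 in WT. The medians of the box C/D list were -0.09, -0.03 and -0.24 in P1048R, T1202K and C1233W. No gene of the 12 in it was past 1.5-fold over WT in any mutant. In either direction, 19.7%, 13.3% and 13.7% of all genes were, and with 12 genes nothing particular is read from this.

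DKC1, known from X-linked dyskeratosis congenita and as a telomerase component, had 219 CPM in P1048R, 226 CPM in T1202K and 207 CPM in C1233W, against 291 CPM in WT. In CPM, WT was above all 3 mutants, with log2 ratios of -0.41 (-0.49 to -0.33), -0.36 (-0.44 to -0.29) and -0.50 (-0.58 to -0.41), each under 1.5-fold. In TPM it was not, with 203.6, 201.3 and 178.0 in P1048R, T1202K and C1233W, against 200.3 in WT. The 6 genes of the H/ACA list had medians of -0.29, -0.19 and -0.39 in P1048R, T1202K and C1233W, and none was past 1.5-fold. In either direction, 19.7%, 13.3% and 13.7% of all genes were, and with 6 genes nothing particular is read from this.

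In CPM, BOP1 and WDR12, partners in the PeBoW complex, differed from WT in opposite directions in P1048R and T1202K. BOP1 had 122 CPM in P1048R, 149.7 CPM in T1202K and 106 CPM in C1233W, against 100 CPM in WT. It was the only member with its lowest CPM in WT, although C1233W and WT did not differ beyond counting error (log2 ratio 0.09, -0.04 to 0.22). The T1202K ratio was 0.58 (0.47 to 0.70), a fold of 1.496 that lies just under 1.5 and passed it with DESeq2 size factors (0.60), and the P1048R ratio was 0.28 (0.16 to 0.40). WDR12 had 78.8, 80.5 and 71.9 CPM in P1048R, T1202K and C1233W, against 96.0 CPM in WT, with log2 ratios of -0.28, -0.25 and -0.42. In TPM, WDR12 had 33.8, 33.1 and 28.6 in P1048R, T1202K and C1233W, against 30.5 in WT. The reads of BOP1 per read of WDR12 numbered 1.54 (interval 1.42 to 1.68) with P1048R, 1.86 (1.71 to 2.02) with T1202K and 1.48 (1.35 to 1.63) with C1233W, against 1.04 (0.95 to 1.14) with WT. BOP1 transcripts are rich in GC (65.2%), and with the GC and length trend removed its ratios were 0.08, 0.20 and -0.14 in P1048R, T1202K and C1233W. WDR12 shares 13 exonic bases with CARF on the opposite strand, which had 51 to 121 reads per library, and the sources used here give no strand setting for the counting. PES1, the remaining PeBoW protein, had 138, 153 and 110.2 CPM in P1048R, T1202K and C1233W, against 160 CPM in WT (log2 ratios -0.21, -0.06 and -0.53); it was named after its values were seen.

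NCL and NPM1 were lower in every mutant than in WT, and they carried most of the reads of the set. NCL had 1846 CPM in P1048R, 1905 CPM in T1202K and 1969.7 CPM in C1233W, against 3032 CPM in WT. The mutants lay close together and WT stood apart, with log2 ratios of -0.72 (-0.74 to -0.69), -0.67 (-0.70 to -0.64) and -0.62 (-0.65 to -0.60), all past 1.5-fold. NPM1 had 1739.5 CPM in P1048R, 1907 CPM in T1202K and 2177 CPM in C1233W, against 2996 CPM in WT. In CPM, the levels of NPM1, NCL and FBL all took the same order over the libraries as those of MYC. The log2 ratios of NPM1 were -0.78 (-0.81 to -0.76), -0.65 (-0.68 to -0.63) and -0.46 (-0.49 to -0.44), past 1.5-fold in P1048R and T1202K. Together, NCL and NPM1 took up 0.382%, 0.393% and 0.414% of reads in P1048R, T1202K and C1233W, against 0.550% in WT. The other 8 members together held 0.171%, 0.170% and 0.150% in P1048R, T1202K and C1233W, against 0.166% in WT. There was 1.06 NCL read per NPM1 read in P1048R, 0.999 in T1202K and 0.905 in C1233W, against 1.01 in WT. NPM1 has 45 annotated pseudogenes in the table, which held 581 to 645 reads per library (2.30 to 2.87% of the NPM1 count), so its count is uncertain by what these copies may share. The 10 compared genes of the nucleolar chaperone list (of 11) had medians of -0.30, -0.11 and -0.33 in P1048R, T1202K and C1233W, and NCL and NPM1 were its only genes past 1.5-fold over WT. Lower than WT past that size were 8.99%, 5.29% and 4.94% of all genes in P1048R, T1202K and C1233W.

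**Figure D3:**
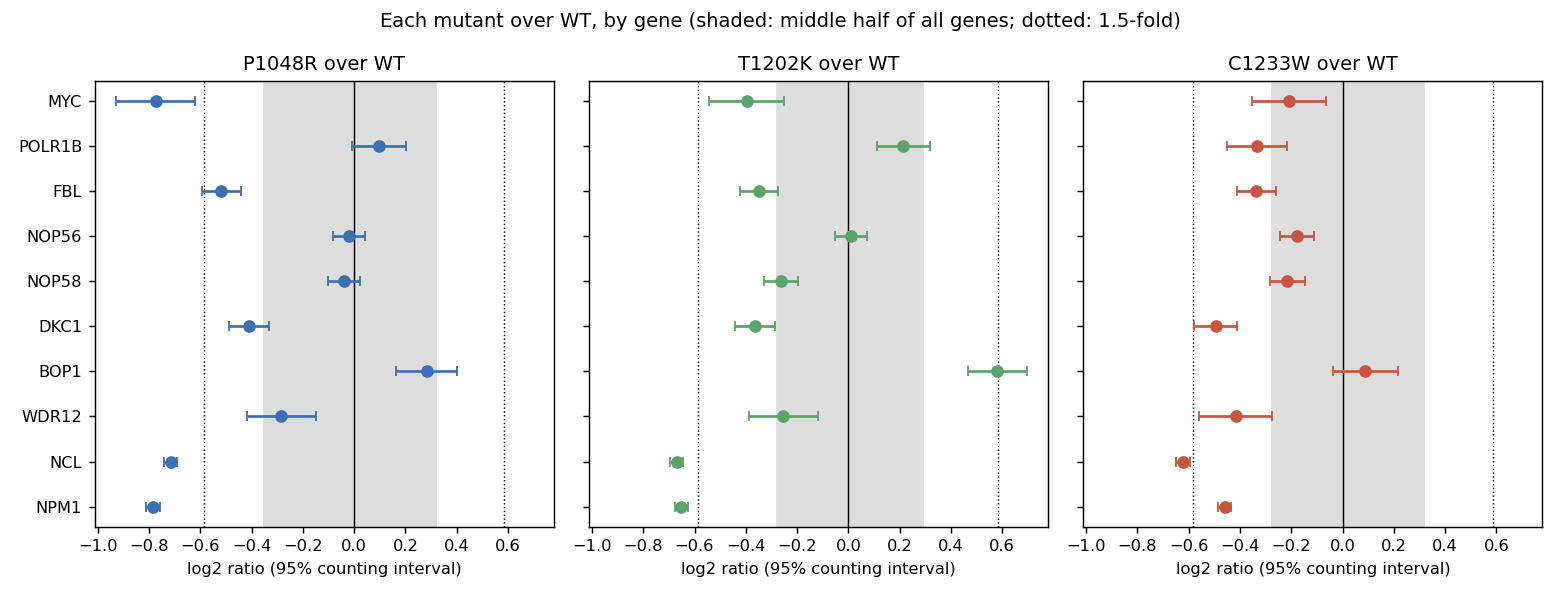
Log2 ratio of each of the 10 genes in P1048R, T1202K and C1233W over WT, with 95% counting intervals. The shaded band holds the central part of all 16262 genes (lower to upper quartile) and dotted lines mark 1.5-fold. NCL is past the line in each panel, NPM1 in P1048R and T1202K, MYC in P1048R, and BOP1 in T1202K touches the upper line at 0.58.

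Of the 10 members, 3 were past 1.5-fold over WT in P1048R (MYC, NCL and NPM1), 2 in T1202K (NCL and NPM1) and 1 in C1233W (NCL), all lower. In either direction, 19.7%, 13.3% and 13.7% of all genes were past 1.5-fold in P1048R, T1202K and C1233W, and lower alone, 8.99%, 5.29% and 4.94%. No member was past 2-fold, and with 10 members nothing particular to the set is read from counts of 3, 2 and 1. At any size, the interval lay below 0 for 6, 7 and 9 members in P1048R, T1202K and C1233W, and for 27.1%, 22.3% and 24.8% of all genes. It lay above 0 for 1 member in P1048R (BOP1), 2 in T1202K (BOP1 and POLR1B) and 0 in C1233W, and for 23.9%, 22.2% and 19.7% of all genes. These intervals narrow with read number. Members had at least 596 reads in each library, while the genes compared reach down to 1 CPM, so these shares are not like for like. The members' median log2 ratios were -0.35, -0.31 and -0.34 in P1048R, T1202K and C1233W, beside -0.04, -0.01 and -0.01 for all genes. When libraries were scaled by total counts, the median of all genes moved to 0.19, 0.17 and 0.13, and the ratios of NCL (-0.49 in each mutant), NPM1 (-0.56, -0.48 and -0.33) and MYC in P1048R (-0.55) were under 1.5-fold. On that scale BOP1 in T1202K (0.76) was past it, and NOP56 lay above 0 in P1048R and T1202K (0.21 and 0.19). The place of a member among all genes does not move with the scaling. In P1048R, T1202K and C1233W, 9.55%, 7.93% and 7.15% of genes had a lower ratio than NCL, and 7.71%, 8.26% and 12.5% a lower ratio than NPM1. Removing the GC and length trend took NPM1 in T1202K to -0.54, under 1.5-fold.

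Between mutants no member was past 1.5-fold, with 11.0% of all genes past it for C1233W over P1048R, 8.87% for C1233W over T1202K and 3.35% for T1202K over P1048R (lower alone, 3.36%, 2.90% and 1.66%). MYC had the highest ratio of the 10 for C1233W over P1048R, 0.57 (0.41 to 0.72), and NPM1 the next, 0.32 (0.30 to 0.35). In counts thinned to the smallest library the MYC ratio was 0.59, just past 1.5-fold. POLR1B lay lowest in that comparison, at -0.43 (-0.54 to -0.32). C1233W over T1202K had its lowest ratios in POLR1B, -0.55 (-0.66 to -0.44), and BOP1, -0.49 (-0.60 to -0.38), while MYC and NPM1 were at 0.19 each. Scaled by total counts, POLR1B reached -0.59 there, past 1.5-fold. For T1202K over P1048R the ratios ran from -0.22 for NOP58 to 0.38 for MYC, with BOP1 at 0.30. NCL differed little between mutants, with ratios of 0.09 for C1233W over P1048R and 0.05 for each of C1233W over T1202K and T1202K over P1048R.

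The rest of the ribosome biogenesis machinery was described with lists of 158 further compared genes, from which the 10 members were left out. These lists were chosen with earlier results of these data known, so their ratios are a description. In P1048R and T1202K these genes lay close to WT, with medians of -0.10 and -0.03, and 6 higher and 5 lower past 1.5-fold in P1048R and 5 higher and 1 lower in T1202K. Of all genes, 10.7% were past it higher and 8.99% lower in P1048R, and 7.96% and 5.29% in T1202K. C1233W was lower, with a median of -0.34 beside -0.01 for all genes. In it, 135 of 158 ratios over WT were below 0, 0 genes were past 1.5-fold higher and 27 lower, where 8.77% and 4.94% of all genes were. Over the other mutants, which does not use the WT library, the medians were -0.26 for C1233W over P1048R and -0.31 for C1233W over T1202K. These comparisons share the C1233W library with the one over WT, so they are no independent check of it. Of the 158 genes, 143 and 145 had ratios below 0 in these comparisons, while 8186 and 8513 of the 16262 genes did. For T1202K over P1048R the median was 0.06, and 0 of 158 genes were past 1.5-fold, beside 3.35% of all genes. The C1233W library had the most PBRM1 RNA of the 4 (60509 CPM, against 8805 CPM in P1048R, 15262 CPM in T1202K and 22768 CPM in WT), and the part of the PBRM1 level in this result was not tested.

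**Figure D4:**
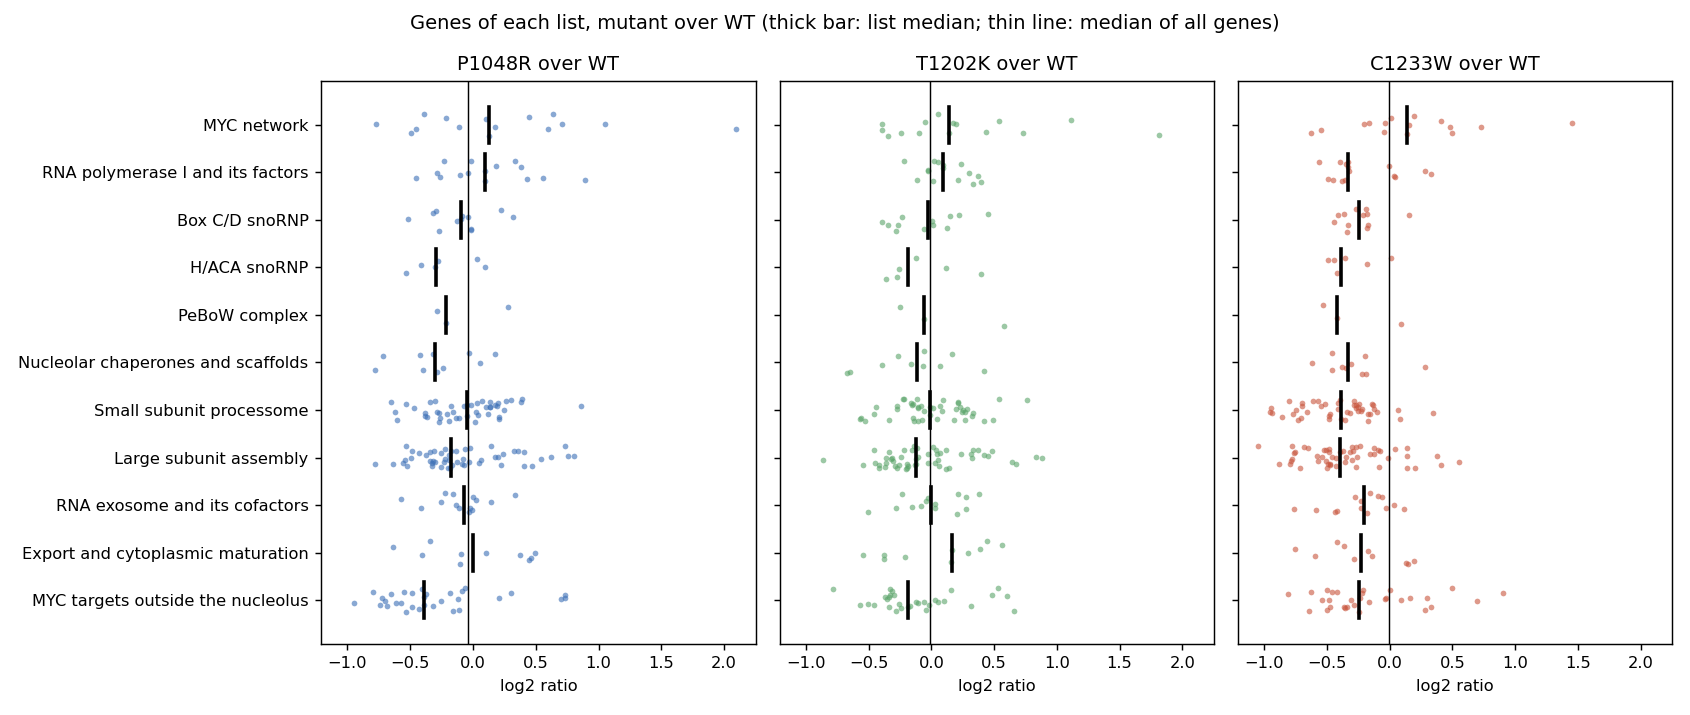
Log2 ratio of each compared gene of 11 lists in P1048R, T1202K and C1233W over WT, 1 point per gene. Thick bars are list medians and the thin line is the median of all 16262 genes (-0.04, -0.01 and -0.01). In C1233W the small subunit and large subunit lists lie left of the line (medians -0.38 and -0.40), and in T1202K they lie near it (-0.01 and -0.12).

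The small subunit processome, the assembly that cuts and folds the small subunit precursor, had 45 genes, all compared. Its medians over WT were -0.05, -0.01 and -0.38 in P1048R, T1202K and C1233W. In P1048R 1 gene was past 1.5-fold higher and 3 lower, in T1202K 1 higher and 0 lower, and in C1233W 0 higher and 13 lower. Of all genes, 10.7%, 7.96% and 8.77% were past it higher in P1048R, T1202K and C1233W, and 8.99%, 5.29% and 4.94% lower. For C1233W over P1048R and over T1202K, all 45 genes had ratios below 0, with medians of -0.33 and -0.39 and with 3 and 10 genes past 1.5-fold lower, as were 3.36% and 2.90% of all genes. UTP4, of the early subcomplex tied to transcription, had 167, 156 and 117 CPM in P1048R, T1202K and C1233W, against 91.6 CPM in WT, and was the higher gene in P1048R (log2 ratio 0.86) and T1202K (0.76). FCF1, a PIN domain nuclease-like protein, had 104, 110.5 and 82.3 CPM in P1048R, T1202K and C1233W, against 160 CPM in WT, with -0.96 in C1233W. UTP11 had 84.9, 90.3 and 73.7 CPM in P1048R, T1202K and C1233W, against 134 CPM in WT, and its P1048R ratio of -0.66 was under 1.5-fold on total counts (-0.43) and with the GC and length trend removed. Chosen after their values were seen, NOL6, UTP20 and UTP15 showed the low C1233W level. NOL6 had 23.7 CPM in C1233W, against 45.7 CPM in P1048R and 44.6 CPM in T1202K, with 38.5 CPM in WT. UTP20 had 82.9 CPM in C1233W, against 147 CPM in P1048R and 134 CPM in T1202K, with 144 CPM in WT. UTP15 had 36.2 CPM in C1233W, against 67.9 CPM in P1048R and 62.5 CPM in T1202K, with 58.9 CPM in WT.

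Large subunit assembly factors numbered 54, of which 53 were compared. The medians over WT were -0.17, -0.12 and -0.40 in P1048R, T1202K and C1233W, with 4 higher and 2 lower past 1.5-fold in P1048R, 4 and 1 in T1202K, and 0 and 11 in C1233W. Among all genes the higher and lower shares were 10.7% and 8.99% in P1048R, 7.96% and 5.29% in T1202K, and 8.77% and 4.94% in C1233W. NIP7, which acts in large subunit precursor processing, had 55.5, 73.0 and 38.8 CPM in P1048R, T1202K and C1233W, against 80.5 CPM in WT. Its C1233W ratio of -1.05 (-1.23 to -0.88) was the only one in these ribosome biogenesis lists past 2-fold, and it was -0.92, under 2-fold, on total counts. NSA2, an assembly factor of the large subunit precursor, had 154, 146 and 154 CPM in P1048R, T1202K and C1233W, against 264 CPM in WT, and was lower in all 3 mutants (log2 ratios -0.78, -0.86 and -0.78). On total counts its P1048R ratio was -0.56, under 1.5-fold. DDX51, a helicase of large subunit maturation, had 41.3, 45.7 and 27.4 CPM in P1048R, T1202K and C1233W, against 24.8 CPM in WT, with log2 ratios of 0.73, 0.88 and 0.14. NOP2, a methyltransferase of the large subunit RNA, was counted with few reads (90, 78 and 65 in P1048R, T1202K and C1233W, against 40 in WT), and its P1048R ratio of 0.81 had a wide interval (0.26 to 1.39). BCCIP, which takes part in nuclear large subunit assembly, had 209, 224 and 193 CPM in P1048R, T1202K and C1233W, against 326 CPM in WT. Its ratios of -0.64 and -0.76 were past 1.5-fold in P1048R and C1233W, and the P1048R ratio fell under it on total counts (-0.42).

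The 14 genes of the RNA exosome, the nuclease that trims precursor ends, and its cofactors had medians of -0.07, 0.00 and -0.20 in P1048R, T1202K and C1233W. Past 1.5-fold, 2 of them were lower in C1233W, beside 4.94% of all genes, and 0 in P1048R and T1202K. MPHOSPH6, an exosome cofactor and 1 of these 2, had 51.6, 54.0 and 45.1 CPM in P1048R, T1202K and C1233W, against 76.6 CPM in WT. Its C1233W log2 ratio was -0.76, and it was under 1.5-fold after the trend on GC and length was taken out. The 10 genes of subunit export and cytoplasmic maturation had medians of 0.00, 0.16 and -0.23 in P1048R, T1202K and C1233W. Past 1.5-fold, 1 of them was lower in P1048R, 0 in T1202K and 2 in C1233W, and 0 were higher. The shares of all genes were 8.99%, 5.29% and 4.94% lower and 10.7%, 7.96% and 8.77% higher. BCCIP, described with the large subunit genes, belongs to this list too and was the lower gene in P1048R and 1 of the 2 in C1233W. A list of 12 small nucleolar RNAs encoded within member genes had 0 to 7 reads for each RNA in each library, too few to compare at this depth.

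**Figure D5:**
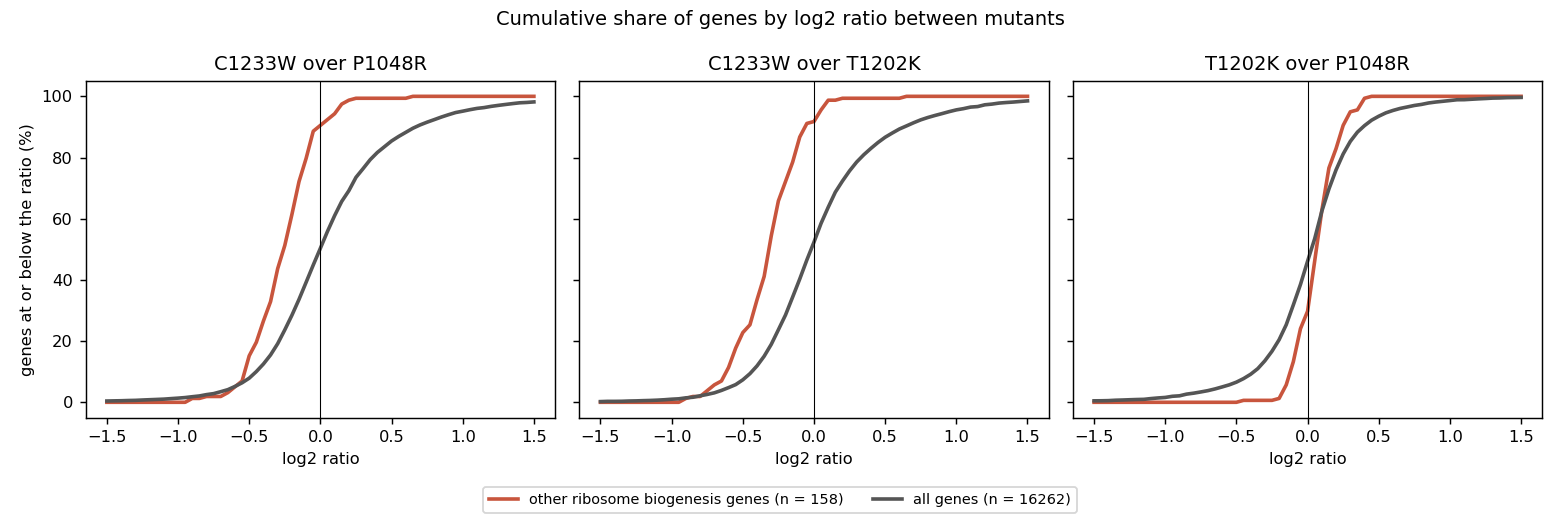
Cumulative share of genes (%) by log2 ratio for C1233W over P1048R, C1233W over T1202K and T1202K over P1048R, for the 158 other ribosome biogenesis genes and for all 16262 genes. At a ratio of 0, 90.5% and 91.8% of the biogenesis genes lie at or below it in the C1233W panels, against 50.3% and 52.3% of all genes. In the T1202K over P1048R panel these shares are 29.7% and 46.1%.

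Genes known as MYC targets outside the nucleolus, 31 in number, had medians over WT of -0.39, -0.18 and -0.25 in P1048R, T1202K and C1233W. In P1048R 3 were past 1.5-fold higher and 8 lower, in T1202K 2 higher and 1 lower, and in C1233W 2 higher and 3 lower. Of all genes, 10.7%, 7.96% and 8.77% were past it higher in P1048R, T1202K and C1233W and 8.99%, 5.29% and 4.94% lower. HSPE1, the mitochondrial co-chaperonin, had 56.1, 62.8 and 61.5 CPM in P1048R, T1202K and C1233W, against 108 CPM in WT, with log2 ratios of -0.95, -0.78 and -0.81. E2F1, a cell cycle transcription factor, had 76.9, 73.0 and 75.2 CPM in P1048R, T1202K and C1233W, against 46.3 CPM in WT, with ratios of 0.73, 0.66 and 0.70 that were under 1.5-fold after the GC and length trend was removed. GADD45A, a stress-induced gene that MYC is known to repress, had 64.1, 49.3 and 73.7 CPM in P1048R, T1202K and C1233W, against 39.5 CPM in WT, and its C1233W ratio was 0.90 (0.72 to 1.08). A list that holds such a gene has no single expected direction, so its median and counts are descriptions only.

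The 5 genes whose profile over the 4 libraries was nearest to that of MYC were EPAS1, ITGA8, RPS3, PRXL2A and FXYD5. The pool was the 9722 genes with at least 10 CPM in every library, and nearness was the root mean square difference of log2 levels centred on each gene's own mean. That difference was 0.008 for EPAS1, 0.016 for ITGA8, 0.027 for RPS3, 0.028 for PRXL2A and 0.029 for FXYD5, and 171 genes lay within 0.1. EPAS1, a hypoxia-inducible transcription factor, had 16.8, 22.0 and 25.2 CPM in P1048R, T1202K and C1233W, against 29.2 CPM in WT. RPS3, a small subunit ribosomal protein gene, had 566, 709 and 840 CPM in P1048R, T1202K and C1233W, against 935 CPM in WT. With 4 libraries, many profiles of this kind lie close together, and the list is a description.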

How the data were processed

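RNA of 4 libraries, 1 per PBRM1 construct, was analysed. The authors deposited raw counts, whole numbers of reads per gene. Trim Galore, HISAT2, featureCounts and hg38 stand in the submitters' processing notes without versions or roles. Annotation, strand setting and the handling of multi-mapping reads are not stated there. Per the labels' protocols, TRIzol extraction and column cleanup preceded a stranded library kit.

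All 58735 identifiers matched GENCODE 29 (GRCh38), which gave coordinates, exon lengths and GC content. TMM library scaling (edgeR 4.0.16, R 4.3.3) gave P1048R, T1202K, C1233W and WT the factors 1.07, 1.03, 0.999 and 0.912. Log2 ratios used counts plus 0.5, with 95% intervals by the Clopper-Pearson method from each pair's counts, and levels had exact Poisson intervals. PCR copies of a molecule are not independent, so intervals and floors cover counting error only. A gene was past 1.5-fold or 2-fold when its ratio reached that size and its interval excluded 0. The ratio script was tested on simulated data. Alternatives were DESeq2 1.42.0 size factors, total counts, TMM over nuclear protein-coding genes without PBRM1, no filter or at least 5 CPM, 2 added to counts, thinned counts, and a loess trend on GC content and length removed.

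The members and lists were chosen with earlier results of these data known. Named are all members, each list's genes past 2-fold over WT, its furthest gene each way past 1.5-fold in each mutant over WT, and the 5 profiles nearest to MYC.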

Additional observations from a re-analysis of the deposited data

How the results depend on the processing

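The 96 summary values and counts were recomputed under 8 alternatives, which gave 768 values. Of these, 725 moved little and 43 moved by more than the set margin. None could count as reversed, because they are medians and counts and not fold calls. List medians were taken relative to all genes, so a change of library scaling alone could hardly move them. Their margin was the interval of the median over the list's own genes, or the full range in the shortest lists, which is wide for short lists. A further 123 values per alternative, the ratios of members and named genes and the medians of all genes, are not among the 768. Scaling by total counts moved 75 of these 123 by more than their margin, and removing the GC and length trend moved 24. The remaining alternatives each moved at most 6. Among the 768 are counts of genes, which cannot change sign. The sign of a list or member median relative to all genes changed in 25 values, of which 15 were without a filter on low counts. The other 10 were medians of at most 0.026 in size under the alternative. Scaling by total counts took the number of members past 1.5-fold to 0 in P1048R, 1 in T1202K and 0 in C1233W over WT, where that scaling shifts all ratios upward. It took the number to 1 for C1233W over T1202K, where it shifts them downward. Thinned counts put 1 member, MYC, past 1.5-fold for C1233W over P1048R. Removing the GC and length trend left 1 member past 1.5-fold in T1202K over WT and gave the PeBoW list a median of -0.25 in P1048R over WT, relative to all genes. With no filter on low counts, the median of all genes itself moved, to -0.19, -0.19 and -0.11 in P1048R, T1202K and C1233W over WT. List medians relative to it then were as follows. P1048R over WT had 0.10 for box C/D (-0.051 with the filter), 0.15 for the small subunit processome (-0.0059 with the filter), 0.019 for large subunit assembly (-0.13 with the filter), 0.12 for the RNA exosome (-0.029 with the filter) and 0.18 for RNA polymerase III. T1202K over WT had 0.16 for box C/D (-0.019 with the filter), 0.069 for large subunit assembly (-0.11 with the filter), 0.25 for RNA polymerase III and 0.0036 for MYC targets outside the nucleolus (-0.17 with the filter). C1233W over WT had -0.13 for box C/D. T1202K over P1048R had -0.012 for the small subunit processome (0.038 with the filter) and -0.044 for large subunit assembly (0.0062 with the filter). C1233W over P1048R had -0.27 for the 10 members, -0.24 for H/ACA, -0.35 for PeBoW, -0.49 for the small subunit processome, -0.44 for large subunit assembly, -0.33 for the RNA exosome, -0.37 for RNA polymerase III and -0.066 for MYC targets outside the nucleolus (0.096 with the filter). C1233W over T1202K had -0.61 for PeBoW, -0.28 for nucleolar chaperones, -0.52 for the small subunit processome, -0.44 for large subunit assembly, -0.43 for RNA polymerase III and -0.24 for MYC targets outside the nucleolus. With at least 5 CPM required, all genes past 2-fold numbered 603, 359 and 330 in P1048R, T1202K and C1233W over WT, 201 for C1233W over P1048R, 124 for C1233W over T1202K and 17 for T1202K over P1048R. Past 1.5-fold, there were 1135, 852 and 286 for C1233W over P1048R, C1233W over T1202K and T1202K over P1048R, fewer because fewer genes were compared, and the nucleolar chaperone median was 0.14 for C1233W over P1048R. No paired analysis was possible because each construct has 1 library, and no replicate could be left out for the same reason. At this depth, ratios of genes with few reads, such as NOP2 and PVT1 in WT, are the least precise.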

Other observations

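RNA polymerase III, which makes transfer RNAs and the smallest ribosomal RNA, is also a known target of MYC. The median ratio over WT of its 19 subunit and factor genes was -0.02, 0.06 and -0.31 in P1048R, T1202K and C1233W, with 1 gene past 1.5-fold higher and 3 lower in P1048R, 2 and 3 in T1202K, and 0 and 3 in C1233W. The shares of all genes past that size were 10.7% higher and 8.99% lower in P1048R, 7.96% and 5.29% in T1202K, and 8.77% and 4.94% in C1233W. POLR3C, a subunit of the initiation subcomplex, had 123, 98.6 and 77.9 CPM in P1048R, T1202K and C1233W, against 57.8 CPM in WT, and its P1048R ratio of 1.08 (0.94 to 1.23) was past 2-fold. GTF3C6, a subunit of the promoter-binding factor TFIIIC, had 89.5, 93.4 and 75.8 CPM in P1048R, T1202K and C1233W, against 149 CPM in WT. Its ratios were -0.74, -0.68 and -0.98, and the first 2 of them were under 1.5-fold on total counts. POLR3GL, a paralog of the subunit POLR3G, had 32.0, 30.4 and 30.9 CPM in P1048R, T1202K and C1233W, against 52.6 CPM in WT, with ratios of -0.72, -0.79 and -0.77, the first of them under 1.5-fold on total counts. POLR3G itself, named after its values were seen, had 65.6, 70.8 and 75.2 CPM in P1048R, T1202K and C1233W, against 109 CPM in WT, so both paralogs were lower in each mutant.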
